A study of Mus musculus with 6 samples.

Results

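Liver expression of the carboxylesterases Ces1d, Ces1e, Ces1f, Ces1g, Ces2a, Ces2c, Ces2e, Ces3a and Ces3b and of arylacetamide deacetylase (Aadac) was compared between wild-type (WT) and LIGHT-transgenic (LIGHT Tg) mice. The members were the probe sets whose annotation named one of these 10 genes, alone or together with a paralog. They numbered 10 of the 45037 non-control probe sets on the array and represented 9 of the 10 listed genes. Ces1d had 3 probe sets, Ces3a and Ces3b shared 1, and each of the other genes but Ces2c had 1. No probe set named Ces2c, so its expression was not analysed here. Total liver RNA in 3 WT and 3 LIGHT Tg samples, from mice all aged 4 to 8 weeks and all fed a high-fat diet (TD88137) for 2 weeks, was measured on Affymetrix arrays, 1 for each sample. The arrays are called by their titles, WT78, WT30 and WT31 for the WT group and Tg77, Tg34 and Tg35 for the LIGHT Tg group. LIGHT is the tumour necrosis factor superfamily ligand encoded by Tnfsf14.

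The groups followed the titles and source names. The description field named all 6 samples as wild-type B6, which disagrees with the title for the LIGHT Tg arrays. The source names gave the strain of the WT mice as B6 and no strain for the LIGHT Tg mice. With the description field in conflict on genotype, genetic background and transgene cannot be told apart. The sources used here do not give the promoter that drives the transgene. Nothing in the labels states that the samples of a group came from separate animals, so p-values cover only the spread seen between these arrays. Between WT30 and WT31, and between Tg34 and Tg35, that spread may be technical; the array titled 77 or 78 differed from the others of its genotype in sex-linked transcripts, as given below. The sum of all signals per array lay between 30816021 and 32495878, and the number of arrays limited the precision. Each genotype had 1 array titled 77 or 78 and 2 arrays titled 30 to 35, and these title-number sets stood apart. The first principal component (48.0% of the variance) separated the sets and the second (30.3%) the genotypes. Sex-linked transcripts followed the sets: the signal of Xist, transcribed from the inactive X chromosome, was 444.0 on WT78 and 407 on Tg77, against 7993 to 9714 on the other arrays. Sex and any other property that the title number marks cannot be told apart, and each member's result is given below with and without the set as a block.

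Carboxylesterases are serine hydrolases of the endoplasmic reticulum that cleave ester bonds in drugs, environmental chemicals and lipids. In hepatocytes, members of the Ces1 branch take part in mobilising stored triacylglycerol for secretion in very-low-density lipoprotein (VLDL), and members of the Ces2 branch hydrolyse acylglycerols and drug esters. Aadac is a membrane-bound deacetylase of the same compartment whose catalytic domain is related to that of hormone-sensitive lipase. The mouse genes lie in tandem clusters. In the RefSeq order of GRCm38.p6, Ces1d, Ces1e, Ces1f and Ces1g stood in a run of 9 adjacent carboxylesterase genes on chromosome 8, and the Ces2 and Ces3 members stood in a second run of 10 on that chromosome. Aadac, on chromosome 3, ended a run of 4 with Aadacl2fm3, Aadacl2fm1 and Aadacl2.

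The stretches upstream of the start sites of Ces2a, Ces2e and Ces2g are shown. These were the genes of the Ces2 branch whose probe sets passed the filter on low signals. Ces2g was outside the member rule, and the 3 genes were chosen with their values known. Each line gives the 250 bases before the gene start, on the plus strand, from RefSeq (GRCm38.p6), at chr8:104733753-104734002 for Ces2a, chr8:104926010-104926259 for Ces2e and chr8:104961468-104961717 for Ces2g. Capitals mark the longest run of bases present in all 3.
Ces2a: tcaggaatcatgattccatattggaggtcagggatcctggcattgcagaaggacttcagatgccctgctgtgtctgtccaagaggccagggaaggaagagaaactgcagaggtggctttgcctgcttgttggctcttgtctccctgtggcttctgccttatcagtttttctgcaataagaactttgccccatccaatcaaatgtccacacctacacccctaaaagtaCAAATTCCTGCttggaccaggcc
Ces2e: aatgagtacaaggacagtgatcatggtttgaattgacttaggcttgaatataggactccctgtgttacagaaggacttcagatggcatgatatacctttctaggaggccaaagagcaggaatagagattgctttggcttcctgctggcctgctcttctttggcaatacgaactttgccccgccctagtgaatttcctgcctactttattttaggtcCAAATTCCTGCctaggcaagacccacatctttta
Ces2g: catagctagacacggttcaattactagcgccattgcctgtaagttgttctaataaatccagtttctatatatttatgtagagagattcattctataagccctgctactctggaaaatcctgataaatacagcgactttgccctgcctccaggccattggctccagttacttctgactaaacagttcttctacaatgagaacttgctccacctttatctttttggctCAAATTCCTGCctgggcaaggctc
The run of 11 bases began 23 bases upstream of the start in Ces2a, 34 in Ces2e and 24 in Ces2g. It was present, on either strand, in 8 of 32851 RefSeq windows running from 250 bases before to 50 after a gene start (0.0244%). These 8 include the 3 windows in which the run was found, so 5 others held it. Over these whole windows, 61.3% of the 300 bases were identical in an alignment of Ces2a with Ces2e, 57.3% in Ces2a with Ces2g and 57.0% in Ces2e with Ces2g. The window of Ces2c, a member without a probe set, did not hold the run of 11 bases. Its identity was 67.0% with Ces2a, 59.0% with Ces2e and 64.7% with Ces2g. Pairs from different carboxylesterase branches shared 48.0% to 55.0% (27 pairs, median 51.0%), with Aadac left out. Windows were present for 7 of the 10 member genes. The nuclear receptor half-site AGGTCA, searched on both strands, was found in 1 of these 7 (Ces2a, 226 bases upstream) and in 16.3% of all windows. The variant half-site AGTTCA was in 0 of 7 and in 14.0% of all windows, and the STAT5-type motif TTCNNNGAA in 0 of 7 and in 8.3%. The HNF1 half-site GTTAAT was in Ces3b and in 7.1% of all windows, and TATAAA in Ces1g and Ces3b and in 13.6%. TATAAA lay on the strand opposite to the gene in Ces1g and on the strand of the gene in Ces3b. These matches describe the letters of the windows and were not tested as binding sites.

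All 10 member probe sets had a lower mean log2 signal in LIGHT Tg liver than in WT liver, by 0.28 (Aadac) to 1.37 (Ces2a), with a median log2 difference of -0.71. Over all 22519 probe sets tested, the median log2 difference was -0.013 and 51.9% were negative. None of the 10 passed limma's test at 5% false discovery rate (FDR) on genotype alone, where 0.457% of all tested probe sets were called lower and 0.715% higher. At an unadjusted p below 0.05, 6 of 10 were lower, against 5.72% of all. With the title-number set as a block, 4 of 10 fell and 0 rose, against 3.21% and 3.26% of all. These were Ces2a, Ces1f and 2 of the 3 Ces1d probe sets. In 5 of 10, every LIGHT Tg signal lay below every WT signal, against 9.19% of all tested probe sets. All 10 members passed the filter on low signals. RNA was taken from whole liver, in which fewer cells of a type and less RNA per cell cannot be told apart.

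**Figure D1:**
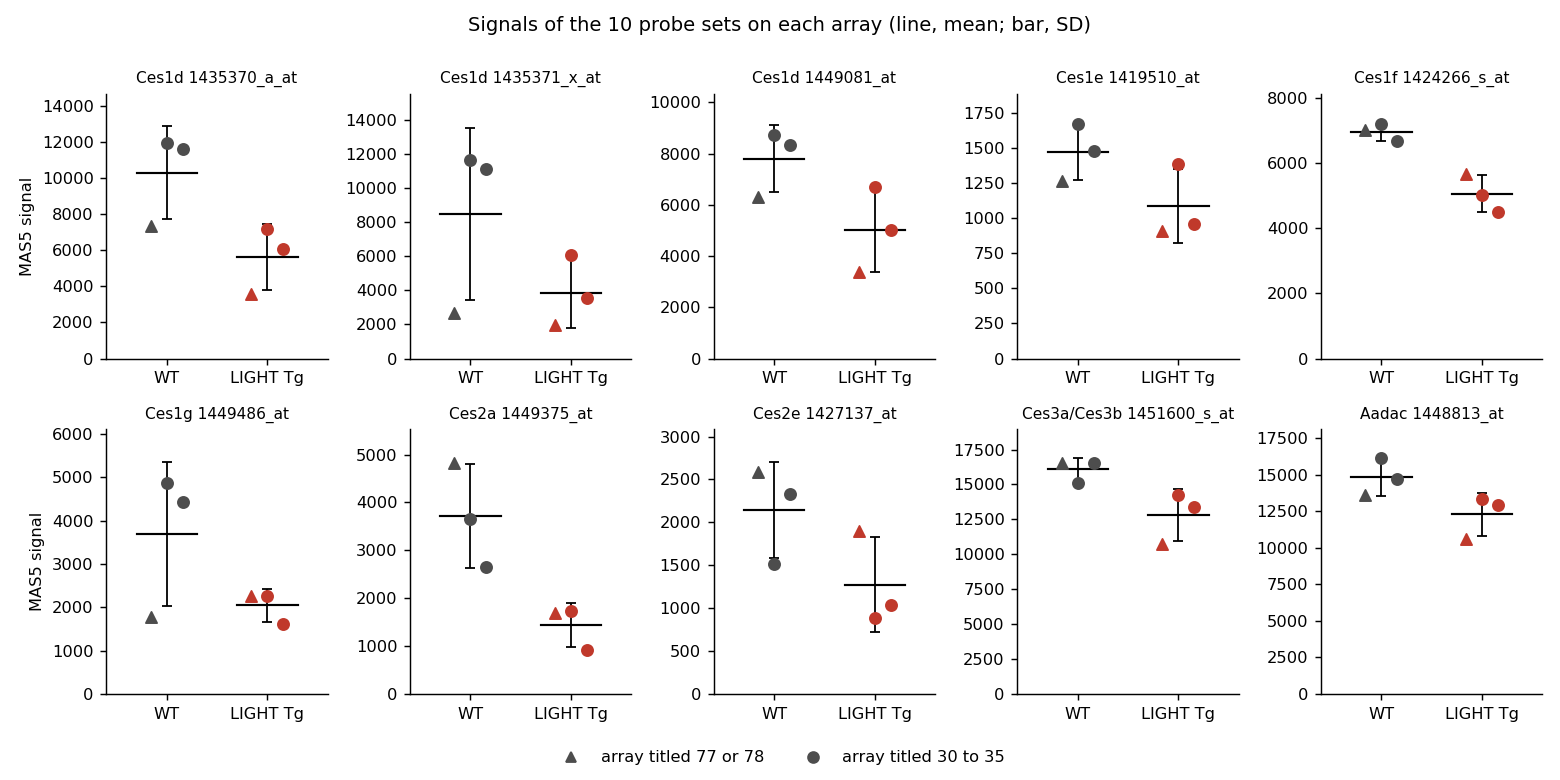
MAS5 signal (linear scale, starting at 0) of each member probe set on the 6 arrays, with 1 panel per probe set, points for single arrays, lines at the group means and bars for the SD (n = 3). The LIGHT Tg points lie wholly below the WT points for Ces1d (1435370_a_at), Ces1f, Ces2a, Ces3a/Ces3b and Aadac.

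Ces1d, also called triacylglycerol hydrolase, releases fatty acids from stored lipid for VLDL assembly. Its probe set 1435370_a_at gave signals of 7315, 11909 and 11598 on WT78, WT30 and WT31, and of 3574, 7143 and 6076 on Tg77, Tg34 and Tg35. The groups did not overlap, and the array titled 77 or 78 was the lowest of its genotype. The mean signal was 10274 ± 2567 (SD, n = 3) in WT and 5598 ± 1832 (SD, n = 3) in LIGHT Tg. The log2 difference was -0.90 (SE 0.297, 95% CI -1.60 to -0.20), 1.87-fold lower, with an adjusted p of 0.294 on genotype alone. With the block the SE was 0.0928 and the adjusted p 0.00339. With the block and any 1 array left out, this probe set was still called, at adjusted p values of 0.00399 to 0.0257. Without WT78 or without Tg77, the block fitted the remaining array of that set exactly. Both refits therefore compared Tg34 and Tg35 with WT30 and WT31, and each gave a log2 difference of -0.84. This holds for every fit with the block below, so these refits are not separate checks.

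The second Ces1d probe set, 1449081_at, gave 6312, 8741 and 8342 in WT and 3359.6, 6696 and 5036 in LIGHT Tg, in the same array order. Here Tg34 lay above WT78, so the groups overlapped. It differed by -0.67 on the log2 scale (SE 0.261; adjusted p = 0.389), and with the block the SE was 0.131 and the adjusted p 0.0286. That call held without Tg34 (0.0108) and was lost without WT78 (0.112), WT30 (0.112), WT31 (0.0778), Tg77 (0.108) or Tg35 (0.103), and also without the variance trend (0.0872) and with no filter (0.0582). The third, 1435371_x_at, is of the design class that may also bind other transcripts; it gave 2670.3, 11675 and 11111 in WT and 1967, 6071 and 3530.4 in LIGHT Tg. Its groups overlapped because WT78 was far below the other WT arrays. The log2 difference was -1.01 (SE 0.633; adjusted p = 0.672), and the adjusted p with the block was 0.0533. The 3 probe sets of Ces1d had the same sign, and their log2 differences ranged from -1.01 to -0.67.

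Ces1f, a second hepatic triacylglycerol hydrolase, gave 7036, 7225 and 6680.3 in WT and 5672, 5027 and 4516 in LIGHT Tg. The groups did not overlap. The mean signal was 6981 ± 277 in WT and 5072 ± 579.0 in LIGHT Tg (SD, n = 3 each). The log2 difference was -0.47 (SE 0.126, 95% CI -0.76 to -0.17), 1.38-fold lower, with an adjusted p of 0.186 on genotype alone and 0.0321 with the block. Its probe set, 1424266_s_at, is of a class that several transcripts can share, so transcripts of close paralogs may enter the signal. With the block, the call held without WT78 (adjusted p = 0.0493) or Tg77 (0.0484) and was lost without WT30 (0.123), WT31 (0.102), Tg34 (0.0706) or Tg35 (0.116), and also with quantile normalization (0.0556), without the variance trend (0.114) and with no filter (0.0642). The refits without WT78 and without Tg77 were the same comparison of Tg34 and Tg35 with WT30 and WT31, at -0.54 in each.

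Ces1e, the egasyn that holds beta-glucuronidase in the endoplasmic reticulum, gave 1266, 1665 and 1473 in WT and 906.5, 1384 and 958.4 in LIGHT Tg. Tg77 and Tg35 lay below all WT arrays and Tg34 did not. Its log2 difference of -0.46 (SE 0.215) had an adjusted p of 0.519, and of 0.153 with the block. Ces1g, a lipid hydrolase of the same branch, gave 1784, 4869.8 and 4426 in WT and 2253, 2260.1 and 1612 in LIGHT Tg. WT78 was within the LIGHT Tg range, and the other WT arrays were above every LIGHT Tg array. For Ces1g the log2 difference came to -0.74 (SE 0.382; adjusted p = 0.571), with an adjusted p of 0.223 with the block. Leaving out WT78 brought the adjusted p to 0.0478, the one array whose removal gave a member a call on genotype alone.

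Ces2a, an acylglycerol and drug ester hydrolase, had the largest difference of the 10 probe sets. Its signal was 4828, 3649 and 2661 on WT78, WT30 and WT31 and 1696, 1727 and 918.2 on Tg77, Tg34 and Tg35. The groups did not overlap. The mean signal was 3713 ± 1085 in WT and 1447 ± 458 in LIGHT Tg (SD, n = 3 each). The log2 difference was -1.37 (SE 0.314, 95% CI -2.11 to -0.64), 2.59-fold lower, with an adjusted p of 0.117 on genotype alone and 0.0199 with the block. With the block, this call was lost without WT78 (adjusted p = 0.0874), without Tg77 (0.0864) and without WT30 (0.103), and also without the variance trend (0.0522). The losses without WT78 and without Tg77 come from the same comparison, with a log2 difference of -1.31 in each refit.

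Ces2e, a close paralog, gave 2582, 1511 and 2335 in WT and 1903, 884.4 and 1035 in LIGHT Tg. Tg77 lay above WT30, and the other 2 LIGHT Tg arrays lay below all WT arrays. Its log2 difference was -0.80 (SE 0.333; adjusted p = 0.447), and 0.0637 was the adjusted p with the block. Ces3a and Ces3b, microsomal lipid hydrolases, shared the probe set 1451600_s_at and cannot be told apart. It gave 16562, 15128 and 16559.6 in WT and 10709, 14258 and 13421 in LIGHT Tg, with no overlap and with Tg77 the lowest. Their log2 difference was -0.34 (SE 0.129; adjusted p = 0.381), and the adjusted p was 0.102 with the block.

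Aadac gave 13602, 16160.0 and 14712 in WT and 10581, 13309 and 12936 in LIGHT Tg. The groups did not overlap; the nearest arrays were Tg34 and WT78. The mean signal was 14824 ± 1283 in WT and 12275 ± 1479 in LIGHT Tg (SD, n = 3 each). The log2 difference of -0.28 (SE 0.126; 95% CI -0.57 to 0.02) was the smallest of the 10, with an adjusted p of 0.498, and of 0.0646 with the block.

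**Figure D2:**
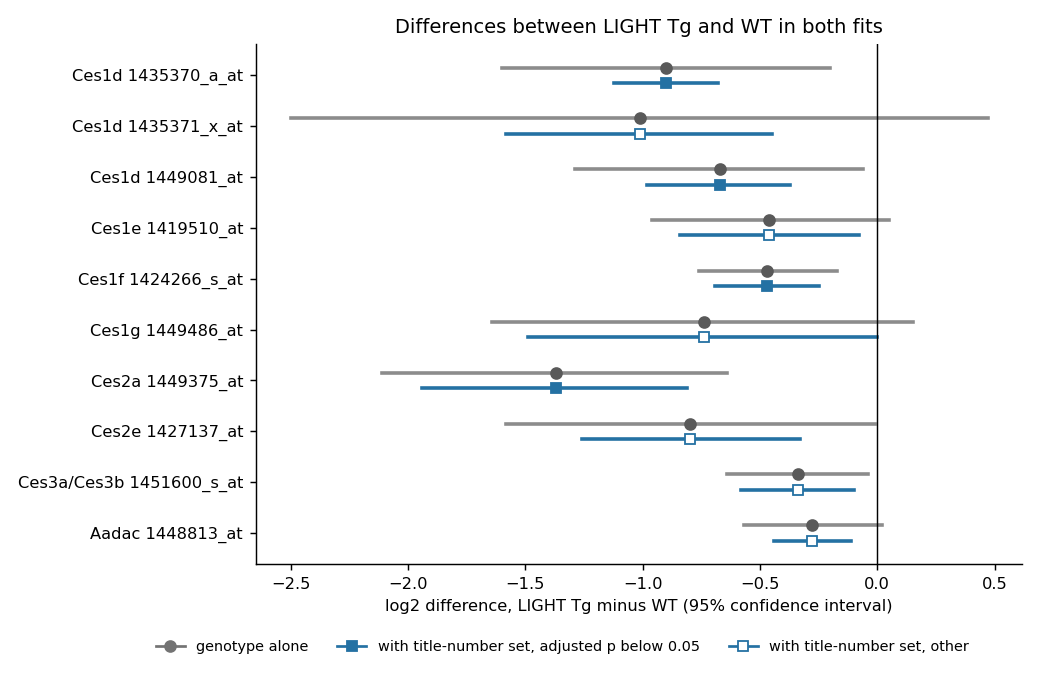
Log2 difference of LIGHT Tg minus WT for each member probe set, with 95% confidence intervals from limma on genotype alone and with the title-number set as a block. All 10 estimates lie below 0, from -1.37 (Ces2a) to -0.28 (Aadac), and the intervals are narrower with the block.

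The title-number sets differed in the members as well. At 5% FDR, the 77 and 78 arrays were lower than the 30 to 35 arrays in 4 of 10 member probe sets, the 3 of Ces1d and that of Aadac, and higher in 1, Ces2e; the background was 15.7% lower and 11.7% higher. The log2 set difference was -1.66 (SE 0.254; adjusted p = 0.00563) for the Ces1d probe set 1435371_x_at and 0.73 (SE 0.212; adjusted p = 0.042) for Ces2e. For Ces2a it was 0.53 (SE 0.256; adjusted p = 0.16) and for Ces1f 0.13 (adjusted p = 0.341). Among the 10 member probe sets the set difference thus had both signs, whereas each genotype difference over all 6 arrays was negative.

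Within the 77 and 78 arrays the median log2 difference of the members, Tg77 minus WT78, was -0.46, and within the 30 to 35 arrays it was -0.70; over all tested probe sets these medians were -0.01 and -0.019. The difference was -1.51 and -1.31 for Ces2a, -1.03 and -0.84 for the Ces1d probe set 1435370_a_at, and -0.31 and -0.54 for Ces1f. Ces1g was the exception in sign, at 0.34 between Tg77 and WT78 and -1.28 among the others. The difference between sets for Ces1g, an interaction of 1.62 (SE 0.317), had an adjusted p of 0.167. No member passed the interaction test, which called 0.0666% of all probe sets (15); at an unadjusted p below 0.05 that test gave 2474. One array of each genotype carried the 77 and 78 side of this comparison.

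**Figure D3:**
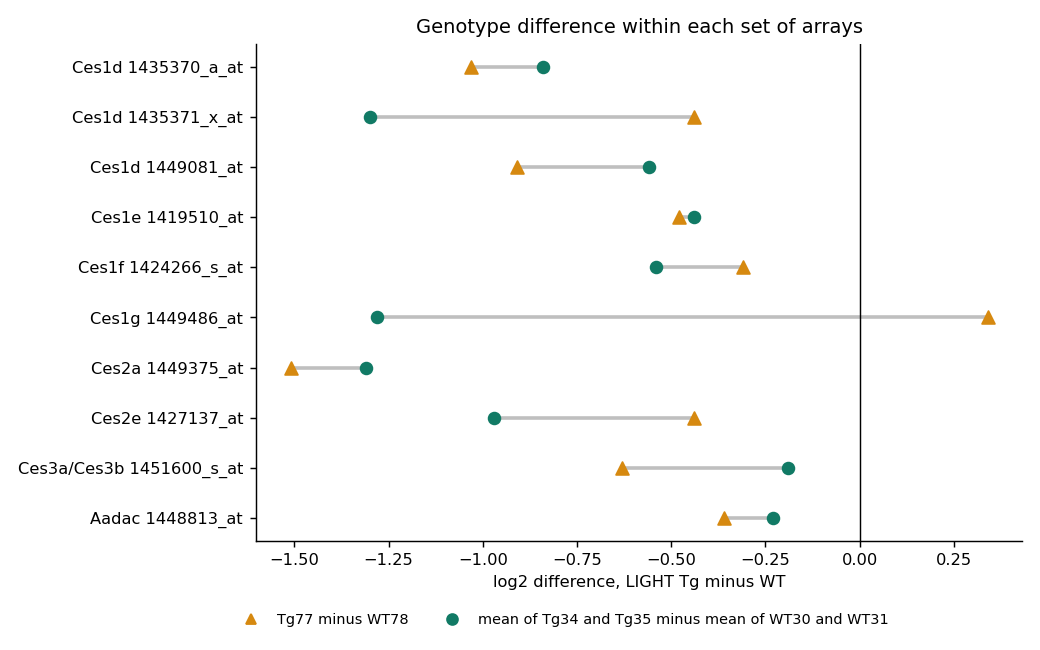
Log2 difference of LIGHT Tg minus WT for each member probe set within the arrays titled 77 and 78 and within the arrays titled 30 to 35. Points on the 77 and 78 side are single differences of 1 array per genotype; Ces1g alone lies above 0 there, at 0.34.

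The other carboxylesterase genes with a probe set of their own showed both signs. Ces2g lay in the same run on chromosome 8 as the Ces2 members. It gave 1323, 946.0 and 982 in WT and 799, 366 and 444 in LIGHT Tg, with no overlap. Its log2 difference was -1.08 (SE 0.313; adjusted p = 0.22), and with the block it fell (SE 0.161; adjusted p = 0.0116). That call was lost without WT30 or WT31, where the highest adjusted p was 0.0686. Ces1c, the carboxylesterase that is secreted into plasma and is a neighbour of Ces1d, gave 16255, 18314 and 19360.4 in WT and 19029, 20160.2 and 21333 in LIGHT Tg. These groups overlapped, and the log2 difference of 0.17 (SE 0.102) had an adjusted p of 0.657, and of 0.155 with the block.

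Ces4a gave 526, 240.1 and 248 in WT and 188, 227 and 201 in LIGHT Tg, with the highest value on WT78. Its log2 difference was -0.62 (SE 0.342; adjusted p = 0.609). Ces1h had a log2 difference of 0.37 (SE 0.266), and the 3 probe sets of Ces5a, an esterase known from the epididymis, had 0.39, -0.30 and 0.27, none past the test in either fit. Ces2b and the 2 probe sets of Ces2f were under the filter on low signals and were not tested. Over the 11 other carboxylesterase genes, 7 had such a probe set and 5 were tested, with 1 probe set per gene: 2 were negative and 3 positive, and the median log2 difference was 0.17.

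**Figure D4:**
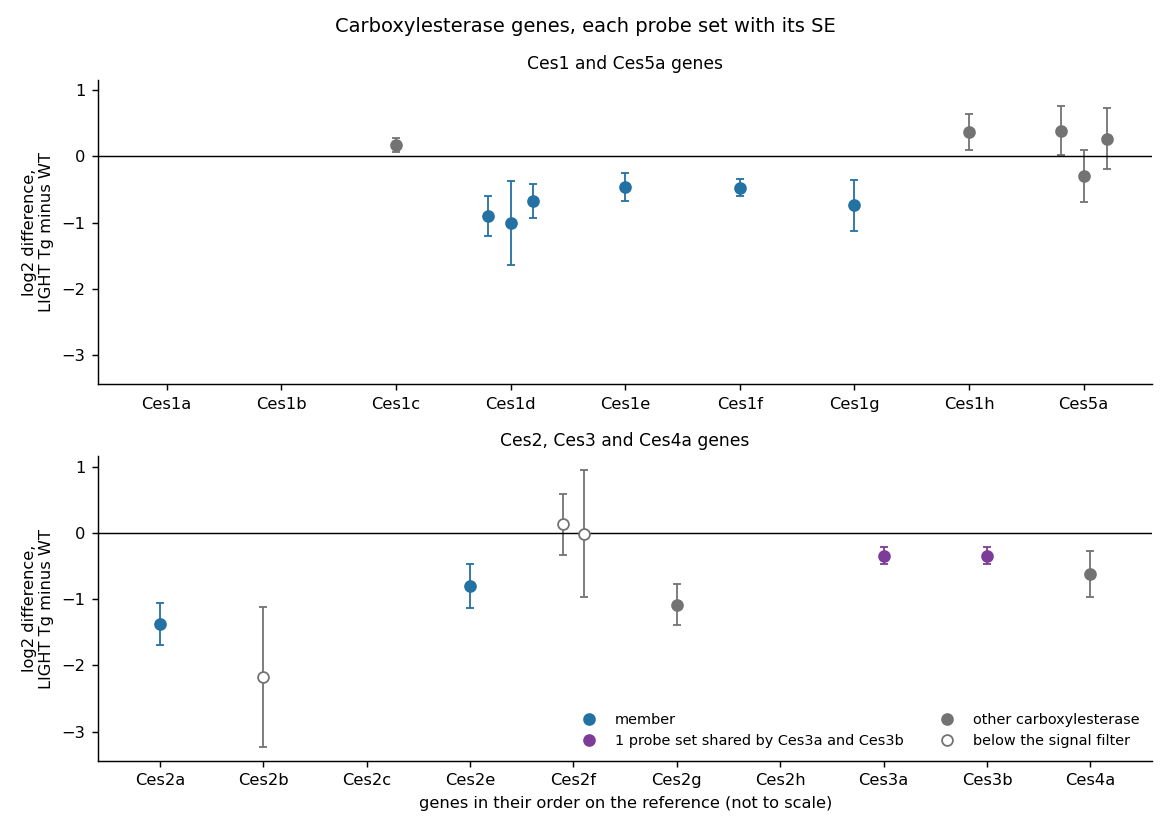
Log2 difference of LIGHT Tg minus WT, with its SE from limma on genotype alone, for each carboxylesterase probe set, with genes placed by their order in the RefSeq annotation and not to scale, in 1 panel for each run of neighbours. The member probe sets lie below 0 in both runs, and Ces1c lies above 0 at 0.17 beside Ces1d at -0.67 to -1.01.

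Genes with related roles were read from 4 further lists, with 1 probe set per gene. Of 15 tested neutral and acid lipid hydrolases, 10 were negative, the median log2 difference was -0.11, and none passed on genotype alone. With the block 3 fell and 1 rose. Mgll, the lipase that completes triacylglycerol breakdown by cleaving monoacylglycerol, gave 6812, 4571 and 4451 in WT and 4075, 3195 and 2584 in LIGHT Tg, with a log2 difference of -0.68 (with the block, SE 0.106 and adjusted p = 0.0132). Lipa, the lysosomal acid lipase, had -0.46 (with the block, SE 0.0885 and adjusted p = 0.0281), and Ddhd2, a neutral lipid hydrolase and phospholipase, -0.74 (with the block, SE 0.154 and adjusted p = 0.0358). Pnpla3, a lipid droplet protein tied to hepatic fat content, rose with the block by 1.81 (SE 0.298; adjusted p = 0.0158), from 478, 843 and 554 in WT to 1425, 3818 and 1781 in LIGHT Tg. Lipg, the endothelial lipase, had -1.33 (with the block, SE 0.349 and adjusted p = 0.074).

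Of 10 tested genes of VLDL assembly and of triglyceride and cholesteryl ester synthesis, 7 were negative and 3 positive, with a median log2 difference of -0.03. With the block 1 rose, Tm6sf2, which acts in lipidation of secreted lipoprotein, by 0.94 (SE 0.167; adjusted p = 0.0205). Of 12 tested hydrolases of drugs and other esters, 8 were negative, with a median of -0.22, and with the block 1 fell, Faah, the fatty acid amide hydrolase, by 0.57 on the log2 scale (SE 0.104; adjusted p = 0.0232).

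Among 13 tested regulators known from hepatic esterase genes, Nr1h4, the bile acid receptor FXR, was the one gene of these lists past the test on genotype alone. It fell from 2944, 3554 and 3329.8 in WT to 1783, 1131 and 1209 in LIGHT Tg, a log2 difference of -1.28 (SE 0.206; adjusted p = 0.0393, and 0.00933 with the block). On genotype alone this call was lost without WT78 (0.052), WT30 (0.176), WT31 (0.164), Tg34 (0.144) or Tg35 (0.199), and held without Tg77 (0.0191). The xenobiotic receptor Nr1i3 (CAR) gave 2075, 2413 and 2282 in WT and 1258, 1638 and 890.0 in LIGHT Tg, with no overlap, and its log2 difference of -0.88 (SE 0.235) had an adjusted p of 0.181, and of 0.063 with the block. Nfe2l2, the stress-response factor NRF2, rose with the block by 0.53 (SE 0.11; adjusted p = 0.0358). The regulators had a median of -0.28, with 8 negative and 5 positive.

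With the block and 1 array left out at a time, the calls of Lipa and Nfe2l2 were lost for each of the 6 arrays, with adjusted p values of 0.0669 to 0.105 and of 0.0516 to 0.133. Those of Mgll and Faah held for 1 array left out, Tg34, and that of Ddhd2 for Tg35; the highest adjusted p was 0.0691, 0.0968 and 0.123. Pnpla3 held without Tg34 or Tg35 (highest 0.0655), Tm6sf2 without WT78, Tg77 or Tg34 (highest 0.0758), and Nr1h4 without any array but WT30 (0.0555). For these genes too, leaving out WT78 and leaving out Tg77 gave the same comparison and not separate checks.

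**Figure D5:**
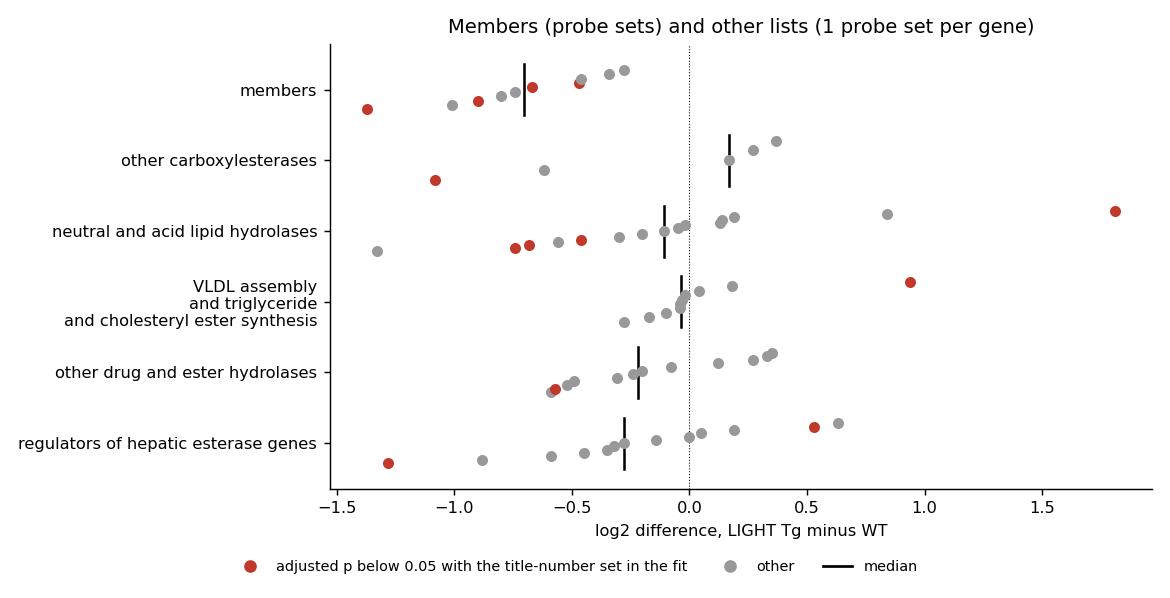
Log2 difference of LIGHT Tg minus WT for the 10 member probe sets and for the genes of the other lists (1 probe set per gene), with points for single probe sets, a line at each median, and red points for an adjusted p below 0.05 with the block. The members, among which Ces1d counts with 3 probe sets, have a median of -0.71, against -0.28 for the regulators and medians from -0.22 to 0.17 for the others.

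Hepatocyte markers were present in both groups, with overlapping ranges: 6 of 8 listed genes had a probe set, none passed the test in either fit, and their summed signal was 104816 to 109361 in WT and 104388 to 109623 in LIGHT Tg. Alb, the albumin gene, had a log2 difference of -0.04 (SE 0.133; adjusted p = 0.977). Some markers of other cells moved with genotype. The endothelial list, all 7 genes positive, summed to 6423 to 7651 in WT and 10169 to 12681 in LIGHT Tg, and Lyve1 (1.24, SE 0.20; adjusted p = 0.0393) and Vwf (2.39, SE 0.229; adjusted p = 0.00678) rose. On genotype alone, the call of Lyve1 held without Tg77 (0.0323) and was lost without WT78 (0.0597), WT30 (0.174), WT31 (0.152), Tg34 (0.151) or Tg35 (0.172), and that of Vwf was lost without Tg35 (0.0512). With the block both held with any 1 array left out. With the block, Stab2 rose too (0.75, SE 0.116; adjusted p = 0.0127), a call that was lost without WT30, WT31 or Tg35 (highest 0.0655). The B cell and plasma cell list summed to 1160 to 1444 in WT and 5041 to 6871 in LIGHT Tg, with Ighm, the immunoglobulin M heavy chain, past the test. Most of that rise was Ighm itself, at 399, 414 and 330 in WT and 5978, 3872 and 4375 in LIGHT Tg. Jchain (0.94, adjusted p = 0.335) and Ms4a1 (-0.19, adjusted p = 0.891) did not pass limma's test on genotype alone. Cd79a (0.10) and Cd79b (-0.37) were under the filter on low signals. In the bile duct list, of which 5 of 6 genes had a probe set, Prom1 rose by 4.20 (SE 0.483, adjusted p = 0.0134). On genotype alone that call was lost without WT31 (0.0515), Tg34 (0.0501) or Tg35 (0.0899). The other tested gene, Epcam, had -0.55 (SE 1.21, adjusted p = 0.957). Krt19 (0.07), Sox9 (0.18) and Krt7 (-1.05) were under the filter on low signals. The list summed to 969 to 6284 in WT, with Epcam at 5846 on WT78, and to 2958 to 6709 in LIGHT Tg. The Kupffer cell and macrophage list summed to 28262 to 32276 in WT and 19668 to 31718 in LIGHT Tg, and the stellate cell and fibroblast list to 13963 to 17447 and 14458 to 15326; neither had a gene past the test. Of lists for tissues that could enter a liver sample, the enterocyte list summed to 13180 to 21318 in WT and 18925 to 23567 in LIGHT Tg, the adipocyte list to 213 to 617 and 284 to 563, the pancreatic acinar list to 1455 to 1921 and 1117 to 1283, and the T cell list to 726 to 792 and 715 to 820. On genotype alone no gene of these 4 lists passed; with the block the enterocyte gene Apoa4, which liver also expresses, rose and the acinar gene Cela1 fell. The call of Cela1 was lost for each of the 6 arrays left out (0.0713 to 0.117), and that of Apoa4 without WT30, WT31, Tg34 or Tg35 (highest 0.137). The part of these cells in the lower signals of the carboxylesterases was not tested.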

How the data were processed

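Biotin-labelled cRNA from total liver RNA was hybridised to Affymetrix arrays, per the labels' protocols. The deposited values are MAS5 signal intensities, 1 per probe set on a linear scale, per the submitters' processing notes. The sources used here do not give the MAS5 version, scaling target, genome build or detection calls, so no probe set could be called absent. Of 45101 probe sets, 64 controls were left out. Signals below 1 (106 values) were set to 1 before log2. A filter kept for testing the 22519 probe sets whose log2 signal, averaged over all arrays, reached the median (a signal of 167).

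Differences were fitted with limma 3.58.1 in R 4.3.3 (lmFit, eBayes with trend, two-sided, Benjamini-Hochberg adjustment over all tested probe sets, 5% FDR), on genotype alone and, as an alternative, with the title-number set as a block. Every adjusted p value is limma's. Scripts were tested on simulated data. Gene names came from the array's platform annotation, checked against RefSeq GRCm38.p6, which changed 0 symbols; 34945 probe sets had 1 symbol, 932 several and 9160 were unnamed here. A list gene was read from its probe set with the highest mean log2 signal. Every member was named. From each other gene list, genes past the test in either fit, otherwise up to 2 with the largest statistic, and all other carboxylesterases were named. From the cell marker lists, only genes past the test in either fit were named by rule. Xist, Alb, Lipg, Nr1i3 and further B cell and bile duct genes were named beyond these rules, after their values were seen. The members and lists were chosen with earlier results of these data known. The filter, offset, scaling, variance model, array weights and arrays were varied.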

Additional observations from a re-analysis of the deposited data

How the results depend on the processing

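All 10 member differences stayed negative in 160 refits on genotype (16 per probe set): 144 left the call as it was, 16 made it pass, and 0 reversed. Of the members, 7 were called lower with array weights, 4 with the title-number set as a block, 4 on the arrays titled 30 to 35 alone, and 0 to 1 with 1 array left out (Ces1g without WT78). Over all probe sets the count of 264 was 148 without the variance trend, 1992 with array weights, 1457 with the block, 956 on the arrays titled 30 to 35 alone, and 43 to 306 with 1 array left out. Of the other listed genes, 1 was called; the count was 0 with no filter, 0 without the variance trend, 14 with array weights, 9 with the block, 4 on the arrays titled 30 to 35 alone and 0 to 1 with 1 array left out. With the block, the count of members called, 4, was 1 without the variance trend, 7 with the stricter filter, 2 with no filter, and 1 to 4 with 1 array left out, where without WT78 or Tg77 the 4 called lacked Ces2a and Ces1d 1449081_at and held Ces1g and Ces1d 1435371_x_at instead; combining the block with another choice was added after seeing the data. The cause of these changes was not tested. With the block, leaving out WT78 and leaving out Tg77 gave the same comparison and not separate checks. Quantile scaling moved the median of all probe sets by 0.008 and a common median by 0.003. No paired analysis was possible because the titles carry different numbers in each genotype. Without detection calls, signals near background carry no bound.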
